A study of Mus musculus with 2 samples.

Results

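The nuclear-encoded genes of oxidative phosphorylation described here are those whose symbols begin with Ndufa, Ndufb, Ndufc, Ndufs, Ndufv, Uqcr, Cox4, Cox5, Cox6, Cox7, Cox8 or Atp5, together with Sdha, Sdhb, Sdhc and Sdhd, and that have at least 20 UMIs (unique molecular identifiers, which count captured RNA molecules) over both libraries. Of 94 matching symbols, 92 were kept, out of 32285 genes in the matrices. Cox7b2, with 0 UMIs, and Cox8c, with 3, fell under the minimum, and Cox8b with 25 and Cox4i2 with 96 lay just above it. The label of subunits holds for 81 of the 92. Another 9 are assembly factors (Ndufaf1 to Ndufaf8, which help to build complex I, and Cox7a2l, which joins complexes into supercomplexes), and 2 are neither: Ndufb1-ps, named as a pseudogene, and Ndufa4l2, a relative of the complex IV subunit Ndufa4. By complex, 45 belong to I, 4 to II, 8 to III, 18 to IV and 17 to V. For 13 members, among them Cox7c, Cox6c, Atp5md, Atp5g2 and Ndufs5, the 3′ end is shared with other annotated transcripts or overlaps a neighbour, so their counts are uncertain.

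Oxidative phosphorylation is the step of respiration in which complexes I to IV of the inner mitochondrial membrane pass electrons from NADH and succinate to oxygen. Complexes I, III and IV pump protons as they do so, and complex V, the ATP synthase, uses the proton gradient to make ATP. Most of its subunits are encoded in the nucleus and imported, and a small set is encoded in mitochondrial DNA, so each complex other than complex II is built from both sources. In immune tissue the pathway is known to differ between cell types: mature neutrophils are poor in mitochondria and live mainly on glycolysis, while lymphocytes and secretory epithelium depend more on respiration.

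The study profiled single cells of the mouse prostate by droplet RNA sequencing, with 1 library from tumour tissue and 1 from normal tissue next to tumour. CD45+ (immune) and CD45- cells were sorted and then loaded together. The labels speak of immune and epithelial cells, but a fibroblast gate of 192 cells in tumour and 105 in normal adjacent also passed its markers. Strain, age, genotype and the origin of the tumour are not given in the labels used here. The tumour library held 92188538 UMIs in 8237 barcodes and the normal adjacent library 77855775 UMIs in 6553 barcodes, and 18 barcodes occurred in both. After filtering, 3863 of 7768 tumour cells (49.7%) and 2937 of 6209 normal adjacent cells (47.3%) passed a gate on marker genes for exactly 1 cell type. Cells outside the gates were not compared. Each group is a single library, so there is no replicate and no test: intervals in parentheses are exact 95% intervals that cover counting error only, and a difference between libraries cannot be told apart from a difference between the mice, preparations or sequencing. The 12 gates with at least 50 cells in both libraries were compared. In all 12, every marker kept out of the gate as a check was detected. Detection meant at least 1 UMI in the summed gate, a low bar that does not show how pure a gate is.

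Nuclear-encoded members took nearly the same share of UMIs in both libraries, 1.79% in tumour and 1.81% in normal adjacent, but differed almost 3-fold between cell types. Luminal progenitor epithelial cells had the highest share, 3.08% (3.06 to 3.11) of UMIs in tumour and 2.86% (2.83 to 2.89) in normal adjacent. Neutrophils had the lowest, 1.10% (1.08 to 1.11) in tumour and 1.06% (1.04 to 1.08) in normal adjacent. The ratio of the highest to the lowest type was 2.81 in tumour and 2.70 in normal adjacent. Next among the 12 compared types stood the cytotoxic lymphocytes, with 2.17% in both libraries for CD8 T cells and 2.15% in tumour against 2.11% in normal adjacent for NK cells. Gamma delta T cells, type 1 dendritic cells, CD4 T cells and type 2 dendritic cells followed, between 1.82% and 2.04%.

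Fibroblasts held 1.67% in tumour and 1.73% in normal adjacent. C1q macrophages (1.64% in tumour, 1.55% in normal adjacent), migratory dendritic cells (1.63% in tumour and 1.601% in normal adjacent) and B cells (1.597% in tumour and 1.57% in normal adjacent) lay close together above the neutrophils. Neighbours in this order were not always separable: the interval of the ratio included 1 between CD8 T and NK cells and between C1q macrophages and migratory dendritic cells in tumour, and between gamma delta T and type 1 dendritic cells and between migratory dendritic and B cells in normal adjacent. Spearman's rank correlation of the type levels between the libraries was 0.979 over 12 types, which share gates and depth. Of the gates with too few cells to compare, basal epithelial cells held 2.19% in tumour (57 cells) and 2.21% in normal adjacent (27 cells), and monocytes held 2.02% in tumour (58 cells) and 2.20% in normal adjacent (43 cells).

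**Figure D1:**
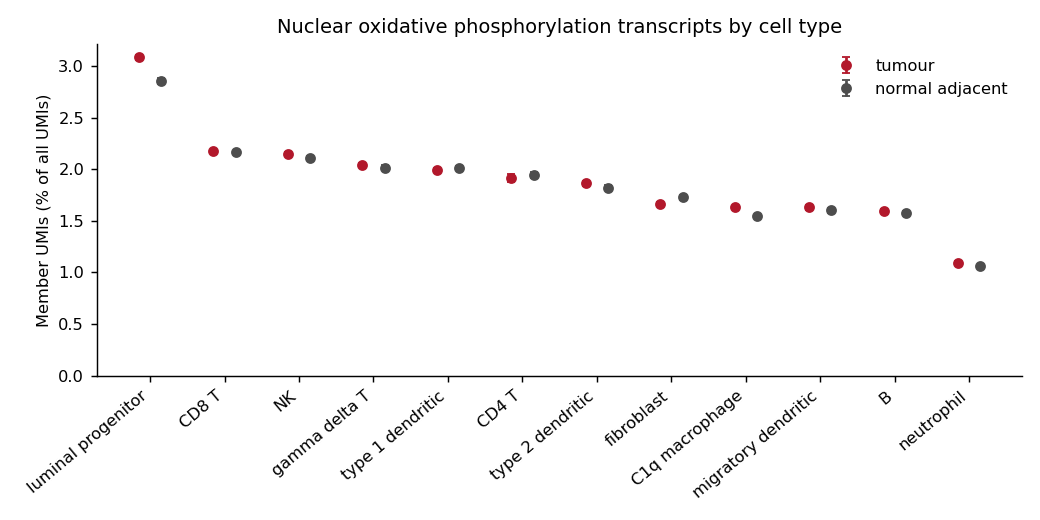
Share of all UMIs (percent) taken by the 92 nuclear-encoded members in each of 12 marker-gated cell types, tumour library left (red) and normal adjacent library right (grey), with exact 95% Poisson intervals that cover counting error only and are mostly smaller than the points. Luminal progenitor cells stand highest, at 3.08% in tumour and 2.86% in normal adjacent, and neutrophils lowest, at 1.10% and 1.06%.

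The order was carried by most members rather than by a few. Of the 92, 62 had their highest level in luminal progenitor cells in both libraries and 57 had their lowest in neutrophils in both. These counts include members with few UMIs, since 77 had at least 20 UMIs in every compared type of both libraries. The same count over all genes was not made, so these numbers do not show that the order is particular to the members. Median genes per cell also differed, at 5183 in luminal progenitor cells and 820 in neutrophils of the tumour library. Levels are CPM, the UMIs of a gene per 1000000 UMIs of the gate, and since each UMI marks 1 transcript end no length correction applies. Among members with at least 20 UMIs in every type, Ndufa4, a small subunit long counted with complex I and now placed in complex IV, and Ndufc2, an accessory subunit of the complex I membrane arm, had the widest ranges. Ndufa4 reached 1009 CPM in luminal progenitor cells against 106 CPM in neutrophils of the tumour library, a ratio of 9.56, and 859 against 111 CPM in normal adjacent, a ratio of 7.77. Ndufc2 ranged 9.10-fold in tumour and 8.03-fold in normal adjacent between the same types. At the other end, Atp5l, a membrane subunit of the ATP synthase with an uncertain 3′ end, ranged only 1.59-fold in tumour and 1.43-fold in normal adjacent. Atp5e, the epsilon subunit of its catalytic head, ranged 1.65-fold and 1.73-fold. In the same complex, Atp5g3, a gene of the c ring, ranged 6.97-fold in tumour and 5.33-fold in normal adjacent, so subunits of complex V did not keep a fixed ratio of transcripts across cell types.

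The composition by complex differed less than the total. Complex I supplied 32.7% of member UMIs in tumour fibroblasts and 32.5% in normal adjacent fibroblasts, against 23.3% to 28.6% in the other 11 types. Complex V supplied 27.6% in tumour and 28.7% in normal adjacent luminal progenitor cells, the lowest values of the 12 types in each library. Migratory dendritic cells had the lowest complex I share, 23.9% in tumour and 23.3% in normal adjacent. They also had the highest complex IV share, 31.9% and 32.5%. Complex III, which takes electrons from ubiquinol to cytochrome c, ranged most in level between types, 3.51-fold in tumour and 3.73-fold in normal adjacent.

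Neutrophils were set against C1q macrophages, the other large myeloid gate, in each library. All members together stood at 0.669 (0.661 to 0.677) of the macrophage level in tumour and 0.684 (0.673 to 0.695) in normal adjacent. A member was called where its ratio was at least 1.2 or at most 1/1.2, over genes with at least 100 UMIs. Of 83 members tested in both libraries, 65 were called lower in both and 3 higher in both. In tumour 68 of 84 members were called lower, or 81.0%, against 67.5% of the 8615 genes tested, and in normal adjacent 65 of 83, or 78.3%, against 67.3%. The median log2 ratio was -0.77 for members and -0.73 for all tested genes in tumour, so the members' median lay close to that of all genes. Neutrophils had a median of 2293.5 UMIs per cell in tumour and 2944.5 in normal adjacent, against 11914 and 10746 in C1q macrophages.

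Within that shared direction members diverged. Ndufa9, an accessory subunit near the ubiquinone site of complex I, stood at 14.8 CPM in neutrophils against 61.5 CPM in C1q macrophages of the tumour library, and at 18.9 against 52.5 CPM in normal adjacent. Ndufc2 was at 61.6 against 238 CPM in tumour and 58.6 against 232 CPM in normal adjacent. Atp5md, a small subunit that holds ATP synthase dimers together, went the other way, with 395 CPM in neutrophils and 192 CPM in C1q macrophages of the tumour library, a ratio of 2.05 (1.92 to 2.20). In normal adjacent its levels were 391 and 221 CPM, a ratio of 1.77 (1.62 to 1.94), and its 3′ end is uncertain. Ndufa7 (ratios 1.23 in tumour and 1.44 in normal adjacent) and the assembly factor Ndufaf7 (1.68 and 1.81) were the other members higher in neutrophils in both libraries. C1q marker RNA was found in the neutrophil gate at 823 CPM in tumour and 642 CPM in normal adjacent, against 13074 and 13146 CPM in the macrophages, and its part in the neutrophil levels was not tested.

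Luminal progenitor cells were set against fibroblasts, the other CD45- gate compared. All members together stood at 1.85 (1.82 to 1.88) times the fibroblast level in tumour and 1.65 (1.62 to 1.68) times in normal adjacent. Of 79 members tested in both libraries, 63 were called higher in both and 1, Cox6b2, lower in both. In tumour 75 of 80 members were called higher, or 93.8%, against 48.8% of 4681 genes, and in normal adjacent 64 of 79, or 81.0%, against 46.8% of 3715 genes. All 17 complex V members were called higher in both libraries, as were 7 of 8 of complex III, 12 of 13 of complex IV and 24 of 37 of complex I. The share of all genes called in both libraries was not counted, here or for the other pairs of types. Uqcr10, an accessory subunit of complex III, reached 577 CPM in luminal progenitor cells against 171 CPM in fibroblasts of the tumour library, and 579 against 191 CPM in normal adjacent. Cox5a, a matrix-side subunit of complex IV, had 688 against 226 CPM in tumour and 631 against 209 CPM in normal adjacent. Within complex II, Sdha, Sdhc and Sdhd were called higher in both libraries and Sdhb, its iron-sulphur subunit, was not, at 117 CPM in luminal progenitor cells and 131 CPM in fibroblasts of the tumour library and at 125 and 109 CPM in normal adjacent. The Sdhb ratios, 0.894 (0.732 to 1.09) and 1.15 (0.904 to 1.46), both had intervals that included 1.

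**Figure D2:**
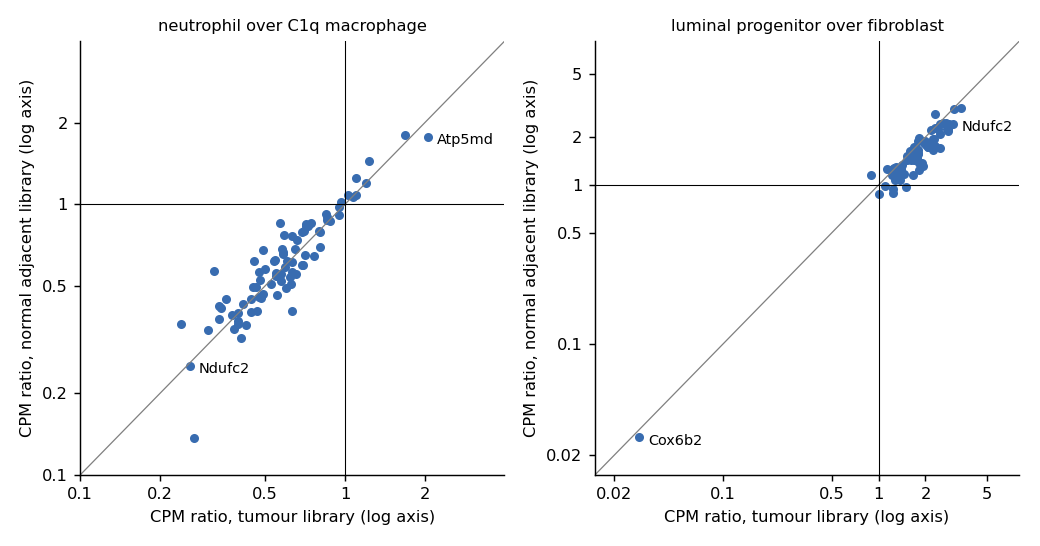
CPM ratio of each member in the tumour library (x axis, log scale) against the same ratio in the normal adjacent library (y axis, log scale), for neutrophils over C1q macrophages (left, 83 members) and luminal progenitor cells over fibroblasts (right, 79 members). Each point is 1 member tested in both libraries and the diagonal marks equal ratios. Most points lie below 1 on the left and above 1 on the right, with Atp5md above and Cox6b2 far below the rest.

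CD8 T cells over B cells gave a smaller contrast, 1.36 (1.34 to 1.38) in tumour and 1.38 (1.36 to 1.39) in normal adjacent for all members. Of 80 members tested in both, 51 were called higher in both and 1 lower. In tumour 55 of 80 were called higher, or 68.8%, against 45.4% of 5033 genes, and in normal adjacent 63 of 82, or 76.8%, against 45.3% of 5840 genes. The exception, named because it was the only one, was the complex I assembly factor Ndufaf4. It had 29.0 CPM in CD8 T cells and 58.4 CPM in B cells of the tumour library, and 31.9 and 65.1 CPM in normal adjacent. B cells were its highest type in both libraries.

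Several complex IV subunits exist as isoform pairs, of which one is general and the other is known from heart, skeletal muscle, lung or testis. The general isoform supplied almost all UMIs of its pair in nearly every gate. The exception was Cox6b2 in fibroblasts. COX6B, the subunit that bridges the dimer of cytochrome c oxidase on the intermembrane side, is made from Cox6b1 in most tissues and from Cox6b2 in testis. In the fibroblast gate Cox6b2 had 299 UMIs, 176 CPM (157 to 198), in tumour and 195 UMIs, 159 CPM (137 to 183), in normal adjacent. That was 34.9% (31.7 to 38.2) of Cox6b1 and Cox6b2 UMIs in tumour and 33.2% (29.4 to 37.1) in normal adjacent. In the other 11 types the share ran from 0% to 4.4%, the highest being type 2 dendritic cells with 3.51% in tumour and 4.4% in normal adjacent. Cox6b1 itself was not lost, at 329 CPM in tumour fibroblasts and 320 CPM in normal adjacent fibroblasts.

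Cox6b2 was spread over many fibroblasts. At least 1 UMI was found in 94 of 192 cells in tumour (49.0%, 41.7 to 56.3) and in 52 of 105 in normal adjacent (49.5%, 39.6 to 59.5), and no cell held more than 7.02% of its UMIs in tumour or 7.69% in normal adjacent. In C1q macrophages, which had median UMIs per cell of 11914 in tumour and 10746 in normal adjacent, against 7046 in tumour and 9701 in normal adjacent fibroblasts, 6.05% of cells in tumour and 5.45% in normal adjacent had a UMI. With each cell thinned to 1000 UMIs the shares were 18.2% in tumour and 17.8% in normal adjacent fibroblasts, against 0.537% and 0.859% in C1q macrophages. Fibroblast markers summed to 23506 CPM in tumour and 23336 CPM in normal adjacent fibroblasts, and to 14.3 and 7.83 CPM in the C1q macrophage gate. The fibroblast share of Cox6b2 in tumour ran from 33.3% to 41.4% under 5 other settings. The highest, with cells thinned to 1000 UMIs, lay above the interval of the reported share.

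**Figure D3:**
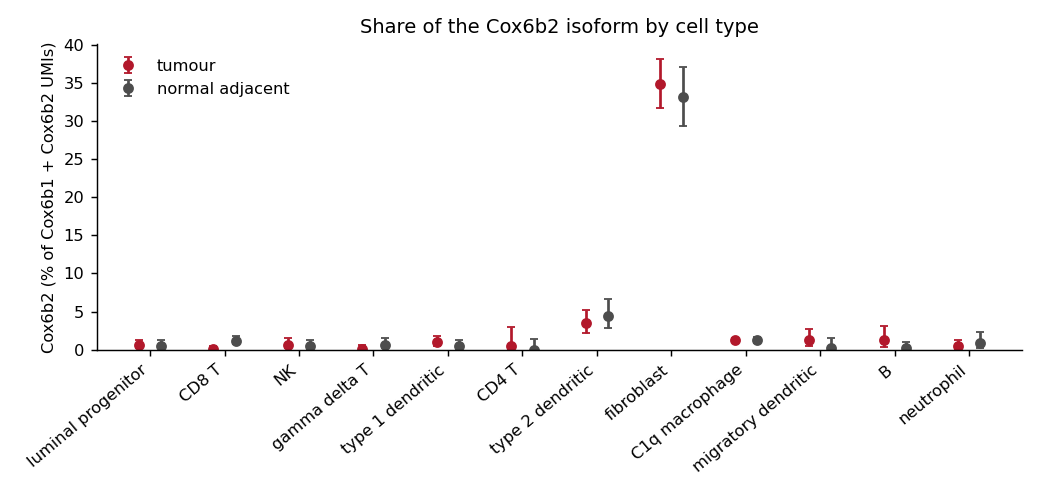
Cox6b2 as a percentage of Cox6b1 plus Cox6b2 UMIs in 12 gated types, tumour left (red) and normal adjacent right (grey), with exact 95% Clopper-Pearson intervals for counting error. Fibroblasts stand at 34.9% in tumour and 33.2% in normal adjacent, and the other 11 types at or below 4.4%.

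The upstream sequences of this pair are shown because they differ in the motifs searched. Both come from RefSeq on GRCm38.p6 and lie on the minus strand, Cox6b2 at chr7:4753095-4753344 and Cox6b1 at chr7:30626115-30626364, and each gives the 250 bases before the annotated start, 5′ to 3′. Capitals mark an ETS motif (CCGGAAG, the core bound by GABPA and related factors) on either strand.
Cox6b2: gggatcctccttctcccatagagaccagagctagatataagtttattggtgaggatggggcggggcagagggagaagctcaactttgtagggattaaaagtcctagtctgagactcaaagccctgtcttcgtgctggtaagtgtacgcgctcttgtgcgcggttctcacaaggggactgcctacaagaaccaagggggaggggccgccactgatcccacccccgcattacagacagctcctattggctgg
Cox6b1: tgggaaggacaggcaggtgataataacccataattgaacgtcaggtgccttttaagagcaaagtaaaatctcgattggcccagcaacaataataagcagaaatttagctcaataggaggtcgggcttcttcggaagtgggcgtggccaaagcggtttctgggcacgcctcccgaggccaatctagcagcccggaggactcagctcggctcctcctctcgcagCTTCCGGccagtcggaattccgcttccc
The Cox6b1 window holds 1 ETS motif, on the opposite strand, and the Cox6b2 window holds none of the 3 motifs searched. Those were CCGGAAG, the NRF1 palindrome made of GCGCA and its reverse complement, and the YY1 core AAGATGGC, each read on both strands. None of the 3 contains another. Of the 92 members 76 matched a promoter entry. The ETS motif was in 14 of them (18.4%), against 7.83% of 27025 genes, the NRF1 motif in 5 (6.58%) against 0.877%, and the YY1 motif in 1 (1.32%) against 1.83%. NRF1 and GABPA are known as factors of respiratory gene promoters. A match is a run of letters and not a bound site, and its absence says only that these letters are not in the window.

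Other tissue-restricted members were rarer. Ndufa4l2, known in other tissues as a hypoxia-induced relative of Ndufa4, had 50 UMIs (29.5 CPM) in tumour fibroblasts and 17 UMIs (13.8 CPM) in normal adjacent fibroblasts. In basal epithelial cells it had 23 UMIs (17.5 CPM) in tumour and 31 UMIs (56.7 CPM) in normal adjacent, but 1 cell held 47.8% of those UMIs in tumour and 1 cell 64.5% in normal adjacent. In the remaining gates it had at most 3 UMIs in either library. Cox7a1, the heart and muscle form, was highest in luminal progenitor cells, with 11.5 CPM in tumour and 13.1 CPM in normal adjacent, where 12 of 56 and 12 of 51 cells had a UMI. Cox6a2, the other muscle form, had 87 UMIs in C1q macrophages in tumour (5.59 CPM) and 24 in normal adjacent (2.69 CPM), from 50 of 958 cells in tumour and 14 of 605 in normal adjacent. Its highest level among the compared types of the tumour library was in NK cells, at 10.2 CPM. Cells outside the gates held most of its UMIs, 269 of 408 in tumour and 245 of 336 in normal adjacent. Cox6a2 was at 0 in luminal progenitor and basal cells of both libraries. Its 25 UMIs in normal adjacent neutrophils came almost wholly from 1 cell with 24. Cox4i2, known from lung, reached 3.26 CPM at most, in normal adjacent fibroblasts with 4 UMIs.

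Members with several general genes also shifted by type. Cox7a2l supplied 30.8% of Cox7a1, Cox7a2 and Cox7a2l UMIs in tumour neutrophils and 30.5% in normal adjacent neutrophils, while in the other 11 types it supplied 39.8% to 61.7%. The c ring of the ATP synthase is built from an identical mature protein encoded by Atp5g1, Atp5g2 and Atp5g3. Atp5g2, whose 3′ end is uncertain, gave 62.6% of their UMIs in tumour and 63.97% in normal adjacent migratory dendritic cells. In luminal progenitor cells it gave 37.7% in tumour and 41.8% in normal adjacent, the lowest of the 12 types in each library.

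Cells of 1 type also varied. Thinned to 1000 UMIs a cell, the variance of the member count over its mean, which is 1 for counting error alone, was 1.37 in tumour and 1.47 in normal adjacent B cells. It was 4.65 in tumour and 4.80 in normal adjacent luminal progenitor cells, 3.81 and 3.71 in fibroblasts, and 3.09 and 3.88 in neutrophils. Unthinned, the central 90% of luminal progenitor cells held 1.14% to 4.64% of UMIs in members in tumour and 1.73% to 5.88% in normal adjacent.

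Between the libraries the summed level differed little. The ratio of tumour to normal adjacent CPM for all members was highest in luminal progenitor cells, 1.08 (1.06 to 1.09), followed by C1q macrophages, 1.06 (1.05 to 1.06). Neutrophils (1.03, 1.02 to 1.05), type 2 dendritic cells (1.02, 1.01 to 1.04) and NK cells (1.02, 1.00 to 1.03) also had intervals above 1. Fibroblasts were lower, at 0.964 (0.947 to 0.981). In the other 6 types the interval included 1, and the ratios ran from 0.987 in CD4 T cells to 1.02 in migratory dendritic cells. The luminal value rests on 56 and 51 cells and turned to 0.936 when cells were weighted equally and to 0.969 when they were thinned to 1000 UMIs. The neutrophil value turned to 0.978 with stricter gates and to 0.995 when set against the median ratio of all genes, type 2 dendritic cells to 0.996 in that last setting and NK cells to 0.989 when thinned. Thinned, 1 of the 12 types had an interval above 1, while with only the subunits of certain reads more types had one than the 5 given here.

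By complex, complex I had intervals above 1 in 7 types and below 1 in 1 (fibroblasts), with ratios from 0.959 in CD4 T cells to 1.12 in luminal progenitor cells. Complex II had intervals above 1 in 3 types and below in 0, with a median ratio of 1.10 over the 12 types and the highest, 1.32 (1.09 to 1.59), in migratory dendritic cells. There Sdha, the flavoprotein that oxidises succinate, had 82 UMIs (64.1 CPM) in tumour and 31 UMIs (31.1 CPM) in normal adjacent. The iron-sulphur subunit Sdhb was also higher in tumour there, at 1.31, its highest ratio over the 12 types. The membrane anchor Sdhd had 65.6 CPM in tumour and 59.2 CPM in normal adjacent, and the other anchor, Sdhc, 25.8 and 27.1 CPM. At its normal adjacent level Sdha would have had 70.8 UMIs, under the minimum of 100 used for calls on single genes. Complexes III, IV and V had medians of 1.00 each, with intervals above 1 in 2, 3 and 3 types and below 1 in 1, 2 and 0. In luminal progenitor cells complex I (1.12, 1.09 to 1.15) and complex IV (1.10, 1.07 to 1.13) carried more of the difference than complex V (1.04, 1.01 to 1.07).

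**Figure D4:**
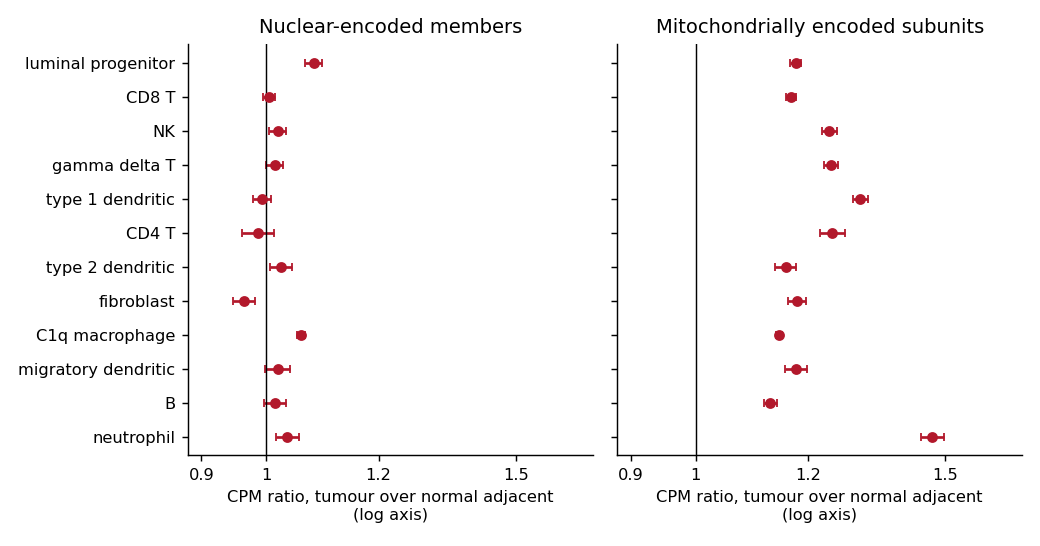
Ratio of tumour to normal adjacent CPM (log axis) by gated type for the summed 92 nuclear-encoded members (left) and the summed 13 mitochondrially encoded subunits (right), with exact 95% intervals for counting error. Nuclear members lie between 0.964 in fibroblasts and 1.08 in luminal progenitor cells, and mitochondrially encoded subunits between 1.13 in B cells and 1.47 in neutrophils.

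The share of members that passed the 1.2-fold call between libraries differed by type. In C1q macrophages, the gate with the most UMIs, 5 of 87 tested members were called higher (5.75%), against 11.2% of 9314 genes, and 0 were called lower, against 8.11%. The median log2 ratio was 0.11 for members and 0.02 for all genes, and 73 of the 87 ratios were over 1, so the sum was made of many small differences. With cells thinned to 1000 UMIs 24 of 70 members were called higher (34.3%), against 17.8% of 2081 genes, and with stricter gates 18 of 83 (21.7%), against 14.7% of 6980 genes, so the members' share lay above that of all genes in these settings and below it as first given. Of the 5, Cox6a2 passed the minimum of 100 UMIs only through the tumour library, since at its normal adjacent level it would have had 65.8 UMIs, and thinned to 1000 UMIs it was found in 0.322% of cells in tumour and 0.344% in normal adjacent. The next members by the rule used for naming were Ndufa12 (1.24, 1.14 to 1.35), an accessory subunit of complex I with 117 CPM in tumour and 94.8 CPM in normal adjacent, and Sdha (1.27, 1.14 to 1.41), with 73.4 and 58.0 CPM. In the same gate all 17 cell cycle genes had ratios over 1 and 11 were called higher, and 14 of 18 dissociation stress genes had ratios under 1. Summed, the cell cycle genes had an interval above 1 in 7 of the 12 types and below 1 in 3, with ratios of 1.58 in NK cells, 1.26 in luminal progenitor cells and 1.17 in C1q macrophages, but 0.921 in neutrophils and 0.777 in type 2 dendritic cells. Without cells that had cell cycle UMIs the C1q macrophage ratio of all members was 1.07 (1.06 to 1.09). The part of dissociation in these ratios was not tested.

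In luminal progenitor cells 15 of 80 members were called higher (18.8%), against 19.6% of 4040 genes, and 0 lower, against 16%. Of the 15, 12 belonged to complex I, which also holds 45 of all 92 members. Ndufab1, the mitochondrial acyl carrier protein that is also a complex I subunit, had 266 CPM in tumour and 203 CPM in normal adjacent, a ratio of 1.31 (1.12 to 1.54). Glycolytic genes were lower in all 12 tested in that gate, 7 of them past the call. In neutrophils 13 of 75 members were called higher (17.3%), against 21.9% of 3748 genes, and 5 lower (6.67%), against 13.2%. Atp5b, the catalytic beta subunit of the ATP synthase, had 193 CPM in tumour and 141 CPM in normal adjacent neutrophils, a ratio of 1.37 (1.17 to 1.601).

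In fibroblasts 1 of 79 members was called higher (1.27%), against 15.8% of 3987 genes, and 14 lower (17.7%), against 18%. Uqcr11, a small subunit of complex III, had 155 CPM in tumour and 207 CPM in normal adjacent, a ratio of 0.751 (0.629 to 0.895). Over all types the share of members called higher was below that of all genes in 11 of 12 (B cells were the exception, with 15 of 79 members or 19.0% against 14.6% of 3676 genes), and the share called lower was below it in 12 of 12. In type 2 dendritic cells 11 of 78 members were called higher (14.1%), against 19.9% of 3047 genes. In B cells 4 of 79 were called lower (5.06%), against 19.4%, and in CD4 T cells 11 of 69 (15.9%), against 19.1% of 1857 genes. Of those 11 in CD4 T cells 4 passed the minimum of 100 UMIs only through the normal adjacent library, and of the 11 in type 2 dendritic cells 1 only through the tumour library. Members had more UMIs behind each ratio, with a median of 3218 in C1q macrophages against 579 for all genes tested there.

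The same members tended to lie on the same side in many types, although all types come from the same pair of libraries and are no replicates of each other. Of 69 members tested in all 12 types, 20 had ratios over 1 in at least 10 types (29.0% against 12.7% of 1332 genes tested in all 12). Another 7 had ratios under 1 in at least 10 types (10.1% against 13%). Over 1 in all 12 were Cox4i1, the largest nuclear-encoded subunit of complex IV, Ndufab1 and Ndufs6, an accessory subunit of complex I. Cox4i1 ratios ran from 1.00 in fibroblasts (658 CPM in both libraries) to 1.19 (1.11 to 1.28) in type 1 dendritic cells, where it had 890 CPM in tumour and 749 CPM in normal adjacent, and 7 of its 12 intervals lay above 1. Ndufab1 ratios ran from 1.07 to 1.31 with a median of 1.203. Uqcrc1, a core subunit of complex III, was over 1 in 11 types with a median ratio of 1.17.

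Under 1 in all 12 were Atp5e, with a median ratio of 0.919 and 6 intervals below 1, and Ndufb1-ps, with a median of 0.823 and 6 intervals below 1. Atp5e had 585 CPM in tumour and 724 CPM in normal adjacent B cells, its lowest ratio, 0.808 (0.737 to 0.884). Atp5md and Cox7c, both uncertain in their counts, were under 1 in 11 types. Atp5md had 160 CPM in tumour and 252 CPM in normal adjacent B cells, a ratio of 0.634 (0.534 to 0.749). The B gate also differed between libraries in its check marker Ighm, at 14227 CPM in tumour and 2827 CPM in normal adjacent. The part of gate make-up in the B cell ratios was not tested. Cox7c had 515 CPM in tumour and 627 CPM in normal adjacent CD8 T cells, a ratio of 0.822 (0.773 to 0.874). Ndufa3, an accessory subunit of complex I, was under 1 in 10 types.

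Members on the low side had short annotated transcripts. The length of a member is that of a single protein-coding transcript in the annotation, which need not be the form expressed in these cells. The 6 with an annotated length that were under 1 in at least 10 types had a median of 427 bases (362 to 540), and the 20 that were over 1 in at least 10 types had 803 bases (525 to 3479). Over 68 members with a length, Spearman's correlation of length with the median log2 ratio was 0.455, given across genes that share libraries and not as a test. Of 18 members under 550 bases, 13 had a median ratio under 1, and the median of the 18 was 0.976. Of 22 members of 1000 bases and over, 20 had one above 1, and the median of the 22 was 1.06. Genes outside the pathway and the cytosolic ribosome had medians of 0.988 under 550 bases (27 genes), 1.01 from 550 and under 700 (39 genes), 1.03 from 700 and under 1000 (108 genes) and 0.997 at 1000 and over (982 genes). Cytosolic ribosomal protein genes had a median of 0.972 under 550 bases (18 genes) and 1.03 at 1000 and over (22 genes). The part of transcript length in the direction of single members was not tested.

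**Figure D5:**
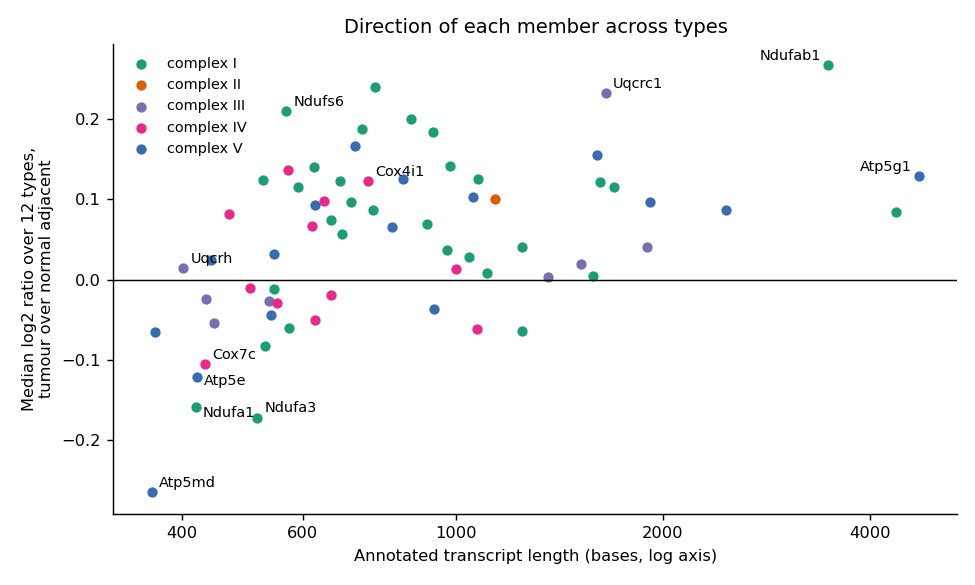
Median log2 ratio of tumour to normal adjacent CPM over 12 gated types (y axis) against annotated transcript length in bases (x axis, log scale) for the 68 members tested in every type that have a length, coloured by complex. Atp5md, Ndufa3, Ndufa1, Atp5e and Cox7c lie lowest and are all under 540 bases, and Ndufab1 and Uqcrc1 lie highest among those labelled.

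The subunits encoded in mitochondrial DNA, the partners of these members, moved further than the nuclear ones. Their summed CPM was higher in tumour in 12 of 12 types, with ratios of 1.13 (1.12 to 1.14) in B cells up to 1.47 (1.44 to 1.496) in neutrophils. Set against the nuclear members, mitochondrially encoded UMIs were 1.33 times as many in tumour neutrophils and 0.937 times in normal adjacent neutrophils, and 3.15 and 2.83 times in B cells. The difference did not include all 13 genes: mt-Nd4l was over 1 in 1 of 12 types and mt-Nd5 in 2 of 12, while mt-Co2, mt-Co3, mt-Atp6, mt-Nd1, mt-Nd2 and mt-Nd4 had intervals above 1 in all 12. Mitochondrial UMIs are also used as a sign of damaged cells, and they made up 3.87% of UMIs in tumour and 3.35% in normal adjacent over all barcodes. The summed dissociation stress genes were lower in tumour in 10 of 12 types and higher in fibroblasts (1.08). Their parts in this difference were not tested. In C1q macrophages it was 0.990 with cells weighted equally and 1.00 with cells thinned to 1000 UMIs.

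Other genes of the pathway gave smaller differences. The 30 mitochondrial ribosomal protein genes listed, which translate the mitochondrially encoded subunits, had a summed ratio with an interval above 1 in 6 types and below in 0, with a median of 1.05. Complex assembly factors outside the symbols above (39 genes) were above 1 in 2 types and below in 0. Genes of the tricarboxylic acid cycle and pyruvate dehydrogenase were above in 5 and below in 1, and the electron, nucleotide and phosphate carriers were above in 1 and below in 2. Regulators of mitochondrial biogenesis were above in 0 and below in 1. Glycolytic genes were above in 2 and below in 7, with ratios from 0.795 to 1.06.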

How the data were processed

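Per the file headers, Cell Ranger 4.0.0 wrote the deposited raw UMI counts, 1 matrix a library. R 4.0.3 and Seurat 3.2.2 are named in the submitters' processing notes. The notes name GRCh38, a human build. For the mouse build and annotation, which the matrices depend on, nothing is stated in what was used here, so no coordinates are taken from the matrices. Promoter sequences and their coordinates come from RefSeq on GRCm38.p6, and GENCODE vM21 served for transcript lengths and shared 3′ ends only (at least 20% of the 60-base words of the last 400 bases found in other genes' transcripts, or an overlap on the same strand).

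From the deposited counts, barcodes with under 200 genes or over 20% mitochondrial UMIs were removed (469 in tumour, 344 in normal adjacent). No doublet caller was run. A cell was gated by the level of a type's markers per 10000 UMIs with bars on other lineages, and cells that passed several gates were left out. UMIs were summed per library and gate. CPM has exact Poisson intervals, shares Clopper-Pearson intervals and ratios exact conditional binomial intervals, at 95%. They cover counting error only. With 1 library a group no model was fitted and no p-value is given; calls need 1.2-fold and at least 100 UMIs. Members could be named if among the first 3 each way in a type by the interval bound nearest 1, at an end of the range across types, in an isoform family or in a set of examples from each complex; the other members named (Ndufa9, Ndufa7, Ndufaf7, Uqcr10, Ndufaf4 and Ndufs6) were chosen after their values were seen. The members, gates and lists were chosen with earlier results of these data known. The interval and call were tested on simulated Poisson counts, the same model that the intervals assume. That test therefore cannot show how well they cover variation between cells or libraries. Alternatives covered filters, denominators, weighting, thinning, gates, members and folds. Tools were Python 3.11.15, NumPy 2.4.6, SciPy 1.17.1, pandas 2.3.3 and matplotlib 3.10.9.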

Additional observations from a re-analysis of the deposited data

How the results depend on the processing

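Each difference between libraries rests on 1 library a group. The number of types with an interval above 1 for all members was 5, and it was 1 with cells thinned to 1000 UMIs, 3 of 8 types with stricter gates, 9 with subunits of certain reads only and 2 of 8 without cells that had cell cycle UMIs. Thinning removes UMIs, which widens intervals, but the ratios themselves also moved, to 1.12 in C1q macrophages and 0.969 in luminal progenitor cells. The causes of the changed counts were not tested. The C1q macrophage ratio stayed above 1 under all 11 settings, the reported one included, at 1.05 with at most 10% mitochondrial UMIs, 1.04 against the median ratio of all genes, 1.08 with cells weighted equally, 1.12 thinned, 1.10 with stricter gates, 1.07 with subunits of certain reads and 1.07 without cell cycle cells. Its members called higher, 5 as reported, were 24 of 70 thinned (34.3%, against 17.8% of all genes), 18 of 83 with stricter gates (21.7%, against 14.7%) and 1 at a fold of 1.5 (1.15%, against 1.65%). Its members called lower, 0 as reported, were 1 against the median ratio, thinned, with stricter gates and at 20 UMIs, and 3 without cell cycle cells, against 9.9%, 10.9%, 10.8%, 13.7% and 10.2% of all genes. The neutrophil ratio reversed to 0.995 against the median ratio and to 0.978 with stricter gates, and was 1.00 with cells weighted equally and 1.01 without cell cycle cells. Among other types, ratios reversed to 0.996 against the median ratio in type 2 dendritic cells, to 0.995 weighted equally and 0.989 thinned in NK cells, and to 0.936 weighted equally and 0.969 thinned in luminal progenitor cells. The fibroblast ratio stayed under 1 under all 11 settings, between 0.932 and 0.980. The ratio of the highest to the lowest type in tumour, 2.81, ran from 2.03 to 3.25, the lowest values where luminal progenitor cells fell under 50 cells and CD8 T or basal epithelial cells stood highest; neutrophils stood lowest under all 10 settings. The number of types with an interval above 1 for mitochondrially encoded UMIs, 12, was 9 thinned and 11 with cells weighted equally, settings added after seeing the data. So was the Cox6b2 share in fibroblasts, which was 41.4% thinned. No paired analysis was possible because each group has 1 library. Depth limits the rarest members, such as Cox4i2, with at most 15 UMIs in a gate.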
